A study of Mus musculus with 6 samples.

Results

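The genes described here take part in the sensing of DNA and RNA in the cytosol. Their products are a DNA sensor, adaptors, a kinase and a transcription factor that pass signals on, and enzymes that remove or alter nucleic acids. The 10 genes are *Mb21d1*, *Tmem173*, *Trex1*, *Tbk1*, *Irf3*, *Mavs*, *Samhd1*, *Rnaseh2a*, *Rnaseh2b* and *Adar*, taken by their names from a table of read counts for 43346 genes. Each name matched 1 gene of the table, and all 10 had enough reads to be tested. *Mb21d1* is the older symbol of the gene for cGAS, and *Tmem173* that of the gene for STING. Polyadenylated RNA was sequenced from primary mouse adult fibroblasts (MAFs), wild type cells grown out of the ears of adult female C57BL/6 mice, in 3 control and 3 senescent samples. Senescent cells were irradiated with X-rays at 20 Gy and cultured for a further 21 days, whereas control cells received a sham irradiation. Both groups grew at 3% oxygen, and both received 100 nM dexamethasone, a synthetic glucocorticoid that synchronizes circadian clocks, for 2 hours and were collected 12 hours later. All comparisons below therefore describe 1 time point in cells that had all been exposed to this agent, and a more exact age of the mice is not given in the sources used here. The sources also do not say whether replicates came from separate mice or cultures, so p-values measure the spread between these samples, which may be technical.

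When DNA lies free in the cytosol, cGAS binds it and makes the cyclic dinucleotide cGAMP, which activates STING on the endoplasmic reticulum. STING then recruits the kinase TBK1, which phosphorylates the transcription factor IRF3, and IRF3 switches on type I interferon genes. Double-stranded RNA is sensed by RIG-I and MDA5, which signal through MAVS on mitochondria to the same kinase and transcription factor. TREX1, SAMHD1 and the RNase H2 complex limit how much DNA or RNA-DNA hybrid is available to these sensors, and ADAR edits adenosine to inosine in double-stranded RNA so that MDA5 does not read it as foreign. In senescent cells, chromatin fragments that leave the nucleus are a known source of cytosolic DNA.

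Total counts lay between 50288454 and 82229553 per library, and the libraries were scaled by TMM, which corrects for library size and composition. Levels of 1 gene across libraries are given as TMM-scaled CPM, which is counts scaled to a fixed library total, and levels of different genes are compared only as FPKM, which also divides by the length listed for each gene in the table. Within each group, any given pair of libraries varied beyond counting noise. As a variance, the median was 1.75 times that noise between control replicates 2 and 3, the lowest ratio. It was 16.3 times between senescent replicates 2 and 3, the highest. This ratio grows with depth. By mean absolute log2 difference, senescent replicates 1 and 2 were the closest pair (0.148) and senescent replicates 2 and 3 the most distant (0.304). The library of senescent replicate 3 stood apart from both others of its group. The senescence markers had the direction that the labels give, with *Cdkn1a* at 123 CPM in control against 620 CPM in senescent cells, *Cdkn2a* at 1.20 and 4.50 CPM, *Lmnb1* at 79.4 and 6.76 CPM, and *Mki67* at 589 and 9.60 CPM. All 10 fibroblast markers were at 56.4 CPM or above in every library, and of these 3 were called higher, 5 lower and 2 neither, with *Col1a1* at 4435 CPM in control against 763 CPM in senescent cells and *Dcn* at 56.6 against 643 CPM. Their sum, at least 47958 CPM in every library, was mostly *Fn1*. Summed markers of other cell types differed as well, with chondrocyte markers between 6793 and 7288 CPM in control and between 611 and 693 CPM in senescent libraries, endothelial markers at 81.2 to 85.1 and 15.5 to 16.4 CPM, and keratinocyte markers at 16.4 to 17.0 and 9.53 to 9.94 CPM. The endothelial sum followed *Erg* (80.4 and 7.47 CPM), whereas the 5 other tested markers were called higher, and the keratinocyte sum followed *Trp63* (13.1 and 4.17 CPM), with 1 of the 4 tested markers called higher, 1 lower and 2 neither. Their part in the results was not tested. In bulk RNA, fewer cells of a kind and less RNA per cell cannot be told apart.

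All 10 genes differed between the groups, 8 of them lower and 2 higher in senescent cells. The genes for cGAS, STING, TBK1 and IRF3 were lower, as were those for TREX1, SAMHD1 and both RNase H2 subunits among the 10. *Mavs* and *Adar* were higher. A gene was called at an adjusted p under 0.05 in the quasi-likelihood test of edgeR, adjusted after Benjamini and Hochberg over all 17589 tested genes. By the same rule 70.3% of all tested genes were called, 36.2% as higher and 34.1% as lower, so a call alone does not set these genes apart. The 3 control and 3 senescent values did not overlap in any of the 10 genes, nor did they in 75.3% of all tested genes. The median log2 fold change of the 10 genes was -0.79, and that of all tested genes was 0.01. With the limit in the study's methods, a fold change over 2 at an unadjusted p under 0.05, 1 of the 10 genes passed (*Rnaseh2b*, lower), against 30.1% of all tested genes. The other 9 changed by less than 2-fold in either direction. The counts behind these values lay between 268 (*Mb21d1*, senescent replicate 1) and 7245 (*Samhd1*, control replicate 2) in a single library.

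**Figure D1:**
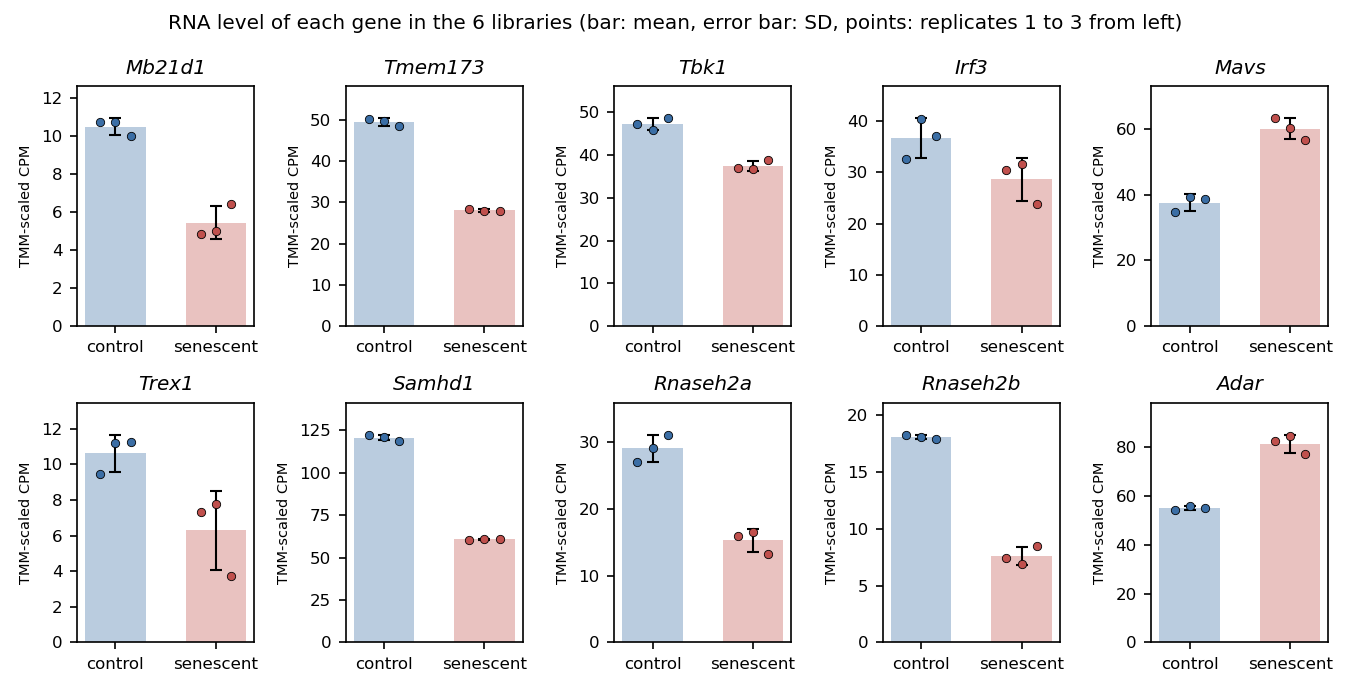
TMM-scaled CPM (y axis, from 0) of each of the 10 genes in the 3 control (blue) and 3 senescent (red) libraries, with points for replicates 1 to 3 from left, bars for the mean and error bars for the SD. The groups do not overlap in any panel, *Mavs* and *Adar* are the panels in which senescent cells are higher, and senescent replicate 3 is the lowest point of the *Trex1* panel at 3.74 CPM.

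*Mb21d1* (ENSMUSG00000032344, mm10, chromosome 9, 78430526 to 78443237) encodes cGAS, the sensor of cytosolic DNA. Its level was 10.7, 10.7 and 9.97 CPM in control replicates 1, 2 and 3, and 4.84, 5.01 and 6.43 CPM in senescent replicates 1, 2 and 3. All senescent libraries lay well below all control libraries, with senescent replicate 3 the highest of its group. The mean fell from 10.5 ± 0.440 to 5.43 ± 0.877 CPM (SD, n = 3 each), a log2 fold change of -0.95 ± 0.12 (SE) with a 95% interval from -1.23 to -0.66 and an adjusted p of 0.000238 (edgeR, Benjamini-Hochberg). Leaving out any 1 library gave values between -1.08 and -0.87. The *Mb21d1* exons share 4.87% of their bases with *Gm8093*, a transcribed pseudogene on the opposite strand. The 250 bases upstream of the start of *Mb21d1* in RefSeq (GRCm38.p6, minus strand, chr9:78443238-78443487) are shown as the promoter of the sensor that opens this pathway, and they have no capitals because none of the motifs searched below lies in them.

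Mb21d1: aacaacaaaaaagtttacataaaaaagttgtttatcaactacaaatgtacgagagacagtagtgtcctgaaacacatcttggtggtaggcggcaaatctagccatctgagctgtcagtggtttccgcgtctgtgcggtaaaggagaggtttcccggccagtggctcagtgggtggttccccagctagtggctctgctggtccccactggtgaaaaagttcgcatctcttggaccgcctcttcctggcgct

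*Tmem173* (ENSMUSG00000024349, on chromosome 18) encodes STING, the adaptor that binds cGAMP. Control replicates held 50.3, 49.6 and 48.5 CPM, and senescent replicates held 28.4, 27.9 and 27.8 CPM. Within both groups the values lay close together, and the gap between the groups was many times wider than either spread. The log2 fold change was -0.82 ± 0.06, with an adjusted p of 5.76e-06 (edgeR, Benjamini-Hochberg), so that the control mean was 1.77 times the senescent mean in the fit. Its exons overlap no exon of another gene in the GENCODE M21 annotation. Per length, *Tmem173* RNA was the most abundant of the 10 in control cells, at 21.5 FPKM, while *Mb21d1* was the least abundant at 2.54 FPKM. The ratio of *Tmem173* to *Mb21d1* was 8.41, 8.28 and 8.72 in control and 10.5, 9.97 and 7.75 in senescent replicates, and these ranges overlap. The decreases of the sensor and its adaptor were not detectably different, with a difference in log2 ratio of 0.14 (exact two-sided permutation test, p = 0.4, where 0.1 is the smallest p that 3 against 3 samples can give).

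*Tbk1* (ENSMUSG00000020115, chromosome 10, 121546455 to 121586794) encodes the kinase on which the DNA and RNA arms converge. Its levels were 47.3, 45.9 and 48.6 CPM in control and 36.9, 36.7 and 38.9 CPM in senescent replicates. Every senescent value lay below every control value, but the fold change was the smallest of the 10 genes. The log2 fold change of -0.33 ± 0.06 had an adjusted p of 0.00123 (edgeR, Benjamini-Hochberg). *Irf3* (ENSMUSG00000003184, chromosome 7, 44997648 to 45002848), the transcription factor that TBK1 phosphorylates, held 32.7, 40.4 and 37.2 CPM in control and 30.5, 31.7 and 23.9 CPM in senescent replicates. The groups nearly touched, with control replicate 1 just above senescent replicate 2, and senescent replicate 3 was the lowest library. The log2 fold change of *Irf3* was -0.36 ± 0.12 (95% interval -0.65 to -0.07) and its adjusted p was 0.0319 (edgeR, Benjamini-Hochberg). This call was lost without control replicate 2 (adjusted p = 0.118) or control replicate 3 (0.0835), with scaling by library size alone (0.0709) and when 10 counts were required in each library (0.0603), all by edgeR. Without senescent replicate 3 the log2 fold change of *Irf3* was -0.23, with an adjusted p of 0.0118, so the size of the difference rested in part on that library. In GENCODE M21, *Irf3* shares 2.56% of its 3442 exon bases with *Bcl2l12* on the opposite strand. The gene as counted had 3187 bases, and the share of those within *Bcl2l12* was not measured.

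*Mavs* (ENSMUSG00000037523, chromosome 2, 131234063 to 131248025) encodes the mitochondrial adaptor of the RNA sensors. Control replicates held 34.7, 39.4 and 38.8 CPM, and senescent replicates held 63.4, 60.3 and 56.9 CPM. In contrast to STING, the adaptor of the DNA arm, this adaptor was higher in every senescent library than in any control library. The mean rose from 37.6 ± 2.57 to 60.2 ± 3.24 CPM (SD, n = 3 each), a log2 fold change of 0.68 ± 0.07 with an adjusted p of 8.75e-05 (edgeR, Benjamini-Hochberg). Per length, *Tmem173* led *Mavs* in control cells with 21.5 ± 0.401 against 11.2 ± 0.768 FPKM, whereas in senescent cells *Mavs* led with 18.0 ± 0.968 against 12.2 ± 0.136 FPKM.

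*Trex1* (ENSMUSG00000049734, chromosome 9, 109057933 to 109060338) encodes the main exonuclease that degrades DNA in the cytosol. Its levels were 9.44, 11.2 and 11.3 CPM in control and 7.34, 7.80 and 3.74 CPM in senescent replicates. All senescent values were lower than all control values, and senescent replicate 3 lay far below the other senescent libraries. The log2 fold change was -0.76 ± 0.25 (95% interval -1.35 to -0.18), with an adjusted p of 0.0258 (edgeR, Benjamini-Hochberg). Without senescent replicate 3 the log2 fold change was -0.48, with an adjusted p of 0.000181 by edgeR. The call was lost by edgeR without control replicate 2 (0.0724), without control replicate 3 (0.0732) and without a filter on low counts (0.0853). *Trex1* values are also uncertain for another reason. In GENCODE M21, 100% of its 1147 exon bases lie within exons of *Atrip* on the same strand, so reads there cannot be told apart by position. *Atrip* encodes a partner of the checkpoint kinase ATR. The gene as counted was longer, with 1314 bases, and the share of those bases within *Atrip* was not measured. *Atrip* held 24.8, 29.2 and 27.6 CPM in control and 25.3, 26.4 and 20.8 CPM in senescent replicates, ranges that overlap, with a log2 fold change of -0.17 ± 0.11 at an adjusted p of 0.191 (edgeR, Benjamini-Hochberg). The ratio of *Trex1* to *Atrip* per length was 1.95, 1.97 and 2.09 in control and 1.48, 1.51 and 0.920 in senescent replicates. No senescent ratio reached a control ratio, and the exact permutation p was 0.1, the smallest the design allows.

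*Samhd1* (ENSMUSG00000027639, chromosome 2, 157097533 to 157135265) encodes a dNTP triphosphohydrolase, which lowers the supply of DNA precursors and takes part in the processing of stalled replication forks. Its levels were 122, 121 and 119 CPM in control and 60.3, 60.8 and 61.1 CPM in senescent replicates. The senescent replicates were almost the same, with a coefficient of variation of 0.659%, the smallest of the 10 genes in either group. *Samhd1* RNA in senescent cells was 0.503 times that in control cells, a log2 fold change of -0.99 ± 0.05 with an adjusted p of 1.11e-06 (edgeR, Benjamini-Hochberg). This left it just short of the fold limit of the study's methods. The interval for *Samhd1*, -1.11 to -0.87, includes a 2-fold decrease. The sequence upstream of its start (RefSeq, GRCm38.p6, minus strand, chr2:157135097-157135346) is shown because this is the most expressed clearance gene of the 10 per length in control cells and because it holds a match to the interferon gamma-activated site (GAS, in capitals), 235 bases before the start.

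Samhd1: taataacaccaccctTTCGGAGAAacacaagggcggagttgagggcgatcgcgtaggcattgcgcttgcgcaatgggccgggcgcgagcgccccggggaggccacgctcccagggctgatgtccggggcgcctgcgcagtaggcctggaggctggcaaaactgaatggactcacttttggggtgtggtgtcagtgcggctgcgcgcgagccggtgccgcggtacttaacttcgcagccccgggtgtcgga

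*Rnaseh2a* (ENSMUSG00000052926, chromosome 8, 84956610 to 84969767) encodes the catalytic subunit of RNase H2, which removes ribonucleotides from DNA and cuts the RNA of RNA-DNA hybrids. Control replicates held 27.0, 29.1 and 31.1 CPM, and senescent replicates held 16, 16.6 and 13.3 CPM. The groups were well separated, with a log2 fold change of -0.93 ± 0.10 at an adjusted p of 0.0001 (edgeR, Benjamini-Hochberg). *Rnaseh2b* (ENSMUSG00000021932, chromosome 14, 62292589 to 62372992), an accessory subunit, held 18.3, 18.1 and 17.9 CPM in control and 7.45, 6.90 and 8.46 CPM in senescent replicates. This was the widest decrease of the 10 genes, with a log2 fold change of -1.25 ± 0.09 (95% interval -1.46 to -1.03) at an adjusted p of 1.04e-05 (edgeR, Benjamini-Hochberg). *Rnaseh2c*, the other accessory subunit and not one of the 10, held 5.15, 7.26 and 7.99 CPM in control and 3.66, 4.18 and 2.00 CPM in senescent replicates. It was lower too, at -1.06 ± 0.28 with an adjusted p of 0.00906 (edgeR, Benjamini-Hochberg). All 3 subunits of the complex were therefore lower in senescent cells, under TMM, RLE and library size scaling alike. The ratio of *Rnaseh2a* to *Rnaseh2b* per length was 2.63, 2.87 and 3.09 in control and 3.82, 4.27 and 2.79 in senescent replicates, so that the ranges overlap (exact permutation p = 0.3). The ratios of *Rnaseh2a* and of *Rnaseh2b* to *Rnaseh2c* also overlapped, with exact permutation p = 0.6 and 0.7. In GENCODE M21, *Rnaseh2a* shares 9.66% of its exon bases with *Gm49661* on the same strand and 5.04% with *Prdx2* on the opposite strand. *Gm49661* was not among the genes counted. *Rnaseh2b* shares 1.06% with *Dleu7* and *Rnaseh2c* shares 24.84% with *Kat5*, both on the opposite strand. *Rnaseh2c* as counted had 1455 bases, against 1715 exon bases in GENCODE M21, and the share of the counted bases within *Kat5* was not measured.

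*Adar* (ENSMUSG00000027951, chromosome 3, 89715022 to 89753446) encodes the main editor of double-stranded RNA. Its levels were 54.2, 55.7 and 55.0 CPM in control and 82.2, 84.4 and 77.2 CPM in senescent replicates. Each senescent library lay clearly above the control libraries. The log2 fold change was 0.56 ± 0.06, with an adjusted p of 5.6e-05 (edgeR, Benjamini-Hochberg). In GENCODE M21, *Adar* exons share 16.81% of their 8118 bases with *Chrnb2* on the opposite strand. The gene as counted was shorter, with 6786 bases, and the share of those bases within *Chrnb2* was not measured. The counts do not separate the interferon-inducible transcript of *Adar* from the constitutive one. RefSeq gives 3 start windows for the gene. In the downstream window (GRCm38.p6, plus strand, chr3:89730468-89730767) lie 2 matches to the core bound by interferon-regulatory factors (GAAANNGAA) and 1 to the GAS motif. The window is printed as its 250 upstream bases and, apart from them, as bases 21 to 50 after the start (chr3:89730738-89730767), with the matches in capitals.

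Adar upstream: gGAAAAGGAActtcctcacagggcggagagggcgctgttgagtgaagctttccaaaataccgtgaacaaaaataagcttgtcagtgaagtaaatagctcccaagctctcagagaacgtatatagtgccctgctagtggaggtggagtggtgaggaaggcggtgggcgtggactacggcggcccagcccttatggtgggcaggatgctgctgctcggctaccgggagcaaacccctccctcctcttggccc

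Adar after the start: ttTTCAAGGAAacGAAAGTGAActctgggg

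These motifs were searched on both strands in the 300 bases around each start (250 before and 50 after) in RefSeq, for which 12 windows of 9 genes were found among the 10 genes and *Rnaseh2c*. *Rnaseh2b* was not among them, and *Tmem173*, on chromosome 18, was left out of the search. GAAANNGAA occurred in 8.56% of all 32851 mouse windows of this length and was found in the downstream *Adar* window alone among the 12. TTCNNNGAA, the GAS motif, occurred in 8.30% of all windows and was found in those of *Samhd1*, *Rnaseh2a* and *Adar*. CACGTG, the E-box, occurred in 7.15% and was found in the *Tbk1* window. Neither E2F site (TTTGGCGC in 0.514% and TTTCCCGC in 1.07% of all windows) nor the AP-1 site TGACTCA (5.20%) was found in any of the 12. The motifs do not overlap each other in the stretches printed. A match describes letters in a window and not binding.

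**Figure D2:**
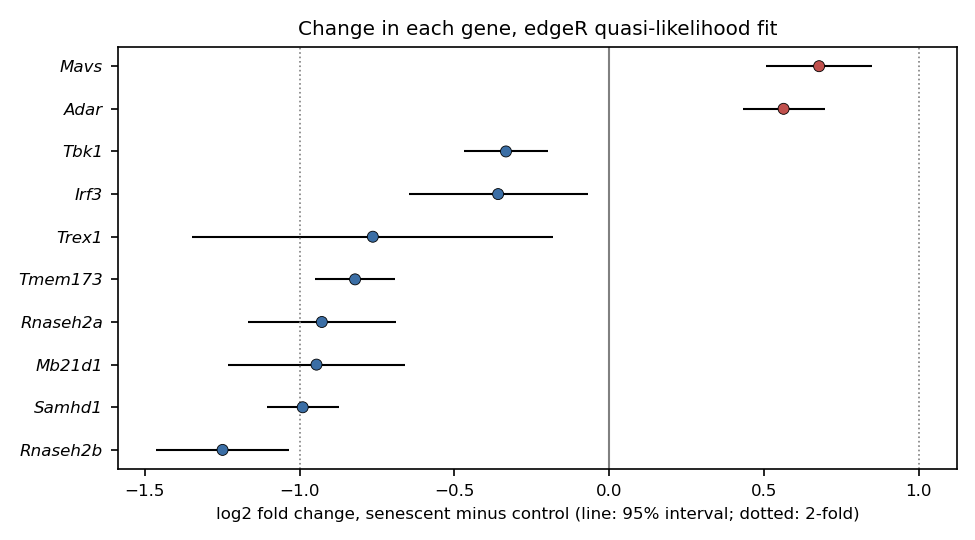
Log2 fold change, senescent minus control (x axis), of the 10 genes (y axis) by edgeR's quasi-likelihood fit, with lines for the 95% interval and dotted lines at a 2-fold change. *Mavs* (0.68) and *Adar* (0.56) lie right of 0, *Rnaseh2b* (-1.25) is the only gene whose whole interval lies beyond a 2-fold change, and *Trex1* has the widest interval.

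Per length, the order of the 10 genes in control cells was *Tmem173* (21.5 ± 0.401 FPKM), *Tbk1* (15.6 ± 0.451), *Samhd1* (13.2 ± 0.182), *Irf3* (11.5 ± 1.22), *Mavs* (11.2 ± 0.768), *Rnaseh2a* (8.29 ± 0.578), *Adar* (8.11 ± 0.111), *Trex1* (8.10 ± 0.788), *Rnaseh2b* (2.90 ± 0.0294) and *Mb21d1* (2.54 ± 0.107) (SD, n = 3). Neighbors whose libraries overlapped were *Irf3* with *Mavs*, and *Rnaseh2a*, *Adar* and *Trex1* among each other. In senescent cells *Mavs* (18.0 FPKM) came first, followed by *Tbk1* (12.4), *Tmem173* (12.2) and *Adar* (12.0), whose values overlapped between libraries. *Irf3* (9.0), *Samhd1* (6.64), *Trex1* (4.79), *Rnaseh2a* (4.36), *Mb21d1* (1.32) and *Rnaseh2b* (1.22) completed the order, and libraries overlapped between *Trex1* and *Rnaseh2a* and between *Mb21d1* and *Rnaseh2b*. The sensor and the RNase H2 accessory subunit thus had the lowest RNA levels of the 10 in both groups. Spread within the senescent group was widest for *Trex1*, with a coefficient of variation of 35.3%, and *Mb21d1* followed at 16.2%.

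Of 26 other sensors of DNA and RNA, 13 were higher, 9 lower and 4 not called in senescent cells, with a median log2 fold change of 0.15. For this list and those below, the shares over all tested genes were 36.2% higher and 34.1% lower. Among the receptors that signal through MAVS, *Ifih1*, the gene for MDA5, was higher, at 5.61, 5.62 and 5.93 CPM in control and 17.5, 16.1 and 20.1 CPM in senescent replicates. Its log2 fold change was 1.65 ± 0.10, with an adjusted p of 4.19e-06 (edgeR, Benjamini-Hochberg). *Ddx58*, the gene for RIG-I, held 73.5, 70.3 and 68.0 CPM in control and 67.7, 71.4 and 74.9 CPM in senescent replicates, which overlap fully. Its log2 fold change was 0.02, with a 95% interval from -0.13 to 0.16 and an adjusted p of 0.833 (edgeR), and it turned negative without control replicate 3 (-0.02) or senescent replicate 3 (-0.01). *Dhx58*, which encodes the regulator LGP2, was lower, at 4.67, 5.42 and 5.01 CPM in control and 3.19, 3.71 and 3.12 CPM in senescent replicates (log2 fold change -0.59, adjusted p = 0.00186, edgeR). The 3 receptors of this family thus went different ways, and *Mavs* was higher beside an RNA sensor that was higher and another for which no difference was detected. The ratio of *Mavs* to *Ddx58* per length was 0.995, 1.18 and 1.20 in control and 1.97, 1.78 and 1.60 in senescent replicates, without overlap (exact permutation p = 0.1, the smallest possible).

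Several further genes on the list of other sensors were higher. *Zbp1*, which encodes a sensor of Z-form nucleic acids, was at 0.140, 0.284 and 0.225 CPM in control and 3.09, 3.48 and 2.81 CPM in senescent replicates, with a log2 fold change of 3.82 ± 0.22 at an adjusted p of 2.48e-06 (edgeR, Benjamini-Hochberg). *Aim2*, the inflammasome sensor of DNA, had 0, 0 and 1 counts in control and 72, 94 and 127 counts in senescent replicates, so it was near the detection limit in control cells, where a count of 0 allows up to 3 counts. *Ifi203* rose from 0.802, 0.837 and 1.02 CPM in control to 8.84, 9.19 and 11.6 CPM in senescent replicates. With these, all 7 genes of the PYHIN family on the list were called higher under each scaling run, a grouping made after the values were seen. PYHIN genes are close paralogs, so their single values are uncertain. *Lrrfip1*, which encodes a nucleic-acid binding protein, rose from 148 to 361 CPM (log2 fold change 1.29, adjusted p = 4.14e-07, edgeR). DNA end-binding proteins went the other way. *Mre11a* fell from 46.7 to 30.5 CPM and *Xrcc6*, the gene for Ku70, from 41.2 to 27.4 CPM (adjusted p = 4.59e-05 and 6.54e-05, edgeR). All 5 of this kind on the list, grouped after the values were seen, were called lower, and 4 with scaling by library size alone.

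Leukocyte markers were also higher in senescent cells when summed. The 9 markers measured summed to between 8.76 and 9.32 CPM in control and between 19.1 and 22 CPM in senescent libraries, and 6 of the 7 that could be tested were called higher. *Tyrobp* and *Aif1*, which are markers of macrophages, stayed at or below 0.0474 CPM in every library. *Ptprc* and *Itgam* were also low, with control and senescent means of 0.00986 and 0.0757 FPKM and of 0.00107 and 0.0791 FPKM. The other markers measured had higher levels, with *Cd68* at 2.81 and 3.66 FPKM and *Cd14* at 1.75 and 3.22 FPKM. Mean *Lyz2* rose from 0.202 to 3.57 FPKM and *Csf1r* from 0.408 to 0.801 FPKM, whereas *Fcer1g* was at 0.350 and 0.267 FPKM. The part of leukocyte RNA in the values of *Aim2*, *Zbp1* and the PYHIN genes was not tested.

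Genes of the kinases, adaptors and regulators below the sensors were split, with 11 higher, 7 lower and 8 not called among 26, and a median log2 fold change of 0.17. Among all tested genes 36.2% were called higher and 34.1% lower, so these counts alone do not set the list apart. *Ikbke*, the gene for IKKε, the kinase most like TBK1, held 41.6, 46.2 and 42.5 CPM in control and 21.7, 21.9 and 19.3 CPM in senescent replicates. It fell, with a log2 fold change of -1.05 ± 0.08 at an adjusted p of 1.02e-05 (edgeR, Benjamini-Hochberg), and the ratio of *Tbk1* to *Ikbke* per length went from 3.38, 2.96 and 3.40 to 5.05, 4.99 and 5.98, without overlap (exact permutation p = 0.1, the smallest possible). *Irf7*, an interferon-inducible relative of *Irf3*, was higher, at 4.71, 5.17 and 4.70 CPM in control and 8.59, 9.30 and 6.36 CPM in senescent replicates (log2 fold change 0.73, adjusted p = 0.00275, edgeR). The *Irf3* to *Irf7* ratio per length was accordingly lower, at 6.57, 7.40 and 7.49 in control and 3.36, 3.23 and 3.55 in senescent replicates (exact permutation p = 0.1). *Irf3* remained the more abundant RNA of the pair in all 6 libraries. *Irf1*, another factor of this family, fell from 25.0 to 13.6 CPM. *Trim56*, the gene for a ubiquitin ligase that acts on cGAS and STING, rose from 80.1 to 146 CPM, and *Usp18*, which encodes a protease that removes ISG15 and dampens interferon signaling, from 2.85 to 8.62 CPM, with adjusted p of 3.81e-06 and 1.81e-06 (edgeR). *Traf3*, whose product links MAVS to TBK1, was higher (51.9 and 78.6 CPM, adjusted p = 9.57e-05, edgeR). *Trim25*, the gene for the ligase that acts on RIG-I, was slightly lower (76.4 and 65.4 CPM, adjusted p = 0.00799, edgeR).

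**Figure D3:**
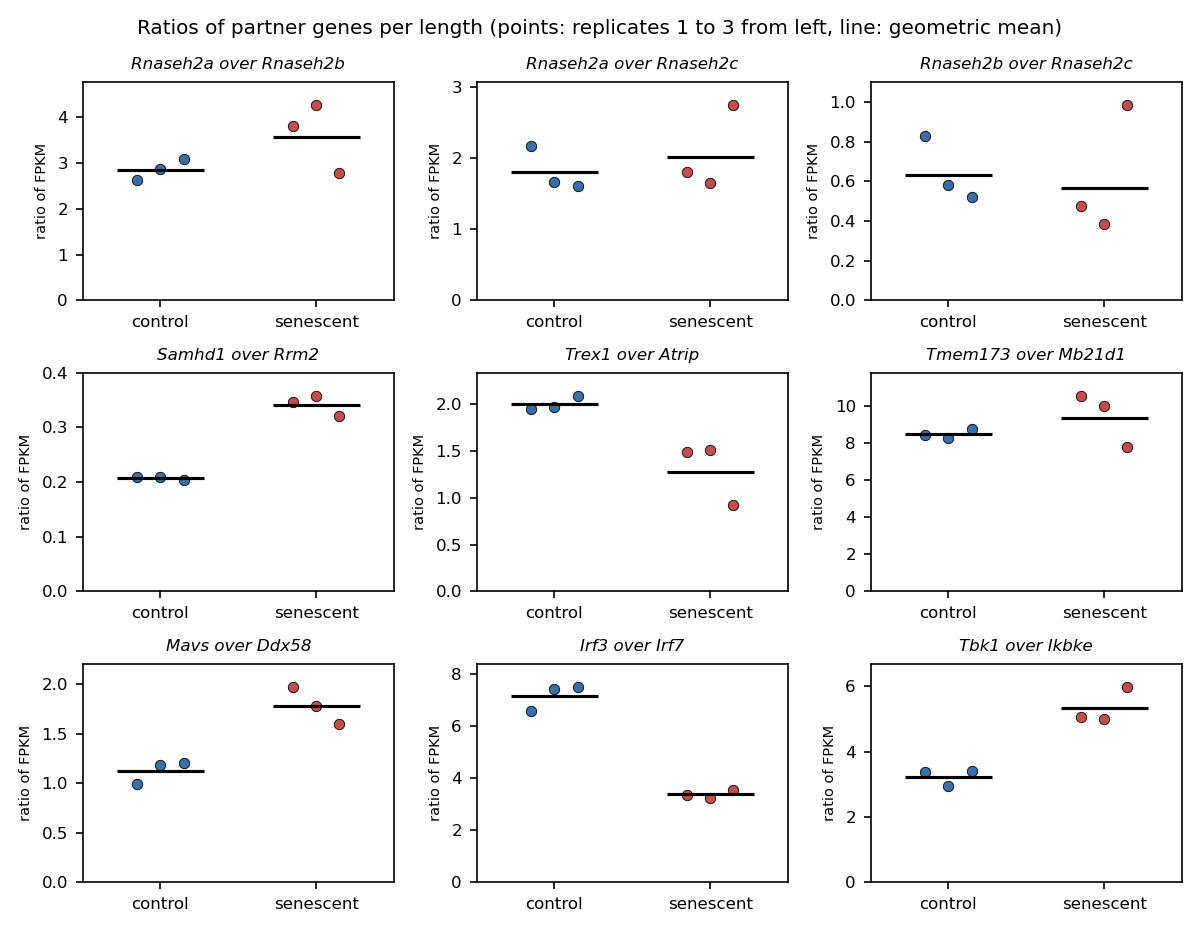
Ratio of FPKM (y axis, from 0) for 9 pairs of partner genes in the 3 control (blue) and 3 senescent (red) libraries, with points for replicates 1 to 3 from left and a line for the geometric mean. Groups overlap in the 3 RNase H2 panels and in *Tmem173* over *Mb21d1*, and they do not overlap in the other 5.

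For the 9 ratios, Benjamini-Hochberg adjustment left no p below 0.18, and the 5 pairs without overlap were at the smallest p of 0.1 that the exact permutation test allows.

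The enzymes and channels that handle cGAMP and the factors that move STING were also split, with 7 higher, 8 lower and 4 not called among 19 tested of 20, and a median of -0.13. Over all tested genes the shares were 36.2% higher and 34.1% lower. *Enpp1*, the gene for the hydrolase that degrades cGAMP outside the cell, held 69.5, 66.9 and 67.5 CPM in control and 263, 266 and 302 CPM in senescent replicates. No control library came near the senescent ones, and the log2 fold change was 2.03 ± 0.07 with an adjusted p of 1.76e-07 (edgeR, Benjamini-Hochberg). *Gja1*, the gene for connexin 43, whose gap junctions pass cGAMP between cells, rose from 61.4 to 328 CPM (log2 fold change 2.42, adjusted p = 5.12e-08, edgeR). Of the LRRC8 channel subunits, which also carry cGAMP, *Lrrc8e* fell from 20.9 to 6.29 CPM (adjusted p = 4.7e-07, edgeR), and of the 5 subunits 3 were higher and 2 lower, or 1 lower with scaling by library size alone. *Zdhhc15*, an acyltransferase gene, fell from 4.80 to 2.08 CPM (adjusted p = 3.11e-05, edgeR). Thus *Mb21d1*, which makes cGAMP, was lower beside a higher *Enpp1*, which breaks it down, at the level of RNA.

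Like *Trex1*, *Samhd1* and the RNase H2 genes, most other clearance genes that were called were lower. Of 23 tested among 27, 12 were lower, 3 higher and 8 not called, with a median of -0.29, and with scaling by library size alone 11 were lower and 6 higher. The shares over all tested genes were 34.1% lower and 36.2% higher. All 4 DNase genes that could be tested were lower, a grouping made after the values were seen. Of these, *Dnase1l3* had few counts, with 12, 20 and 12 in control and 1, 11 and 10 in senescent replicates. *Dnase2a*, the gene for the lysosomal DNase, held 22, 23.6 and 21.5 CPM in control and 17.4, 18.7 and 15.8 CPM in senescent replicates (log2 fold change -0.37, adjusted p = 0.00548, edgeR). *Apobec3*, a cytidine deaminase gene, fell from 26.5 to 8.94 CPM, and *Lsm11*, needed for histone RNA processing, from 13.6 to 8.91 CPM (adjusted p = 2.13e-06 and 0.000195, edgeR). *Pld4*, the gene for an endolysosomal exonuclease of single-stranded nucleic acids, was at 0.10, 0.0669 and 0.123 CPM in control and 1.84, 1.45 and 1.15 CPM in senescent replicates, with a log2 fold change of 3.92 ± 0.32 at an adjusted p of 1.69e-05 (edgeR). *Adarb1*, which encodes the second active RNA editor, ADAR2, was higher like *Adar*, at 3.39, 3.20 and 4.07 CPM in control and 7.33, 8.25 and 7.01 CPM in senescent replicates (log2 fold change 1.09, adjusted p = 0.000103, edgeR).

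Of 11 genes listed around effectors that double-stranded RNA switches on, 6 were higher, 2 lower and 3 not called, with a median of 0.87. Not all 11 encode such an effector. With RLE scaling or scaling by library size alone, 7 were higher and 1 lower. *Oasl2* rose from 1.45 to 10.9 CPM and *Oas1a*, an oligoadenylate synthetase gene, from 0.837 to 4.70 CPM (adjusted p = 4.81e-07 and 1.75e-06, edgeR), but these genes are near-identical copies in part and their single values are uncertain. *Oas1c* (3.54 and 2.73 CPM) was lower at an adjusted p of 0.0436 by edgeR, a call that was lost in 8 of 12 alternative settings. *Prkra*, which encodes an activator of PKR, fell from 30.0 to 19.6 CPM (adjusted p = 0.000169, edgeR). *Eif2ak2*, the gene for PKR itself, held 67.7, 63.7 and 60.6 CPM in control and 59.2, 56.6 and 73.8 CPM in senescent replicates. Its groups overlapped, and its log2 fold change of -0.02 (adjusted p = 0.889, edgeR) became positive with RLE scaling (0.0023) and with library size scaling (0.06). Without senescent replicate 3, the highest of the 6 libraries for this gene, *Eif2ak2* was called lower at -0.14 with an adjusted p of 0.0184 (edgeR).

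At the end of the pathway, interferon ligand RNA was at or near 0 counts while most interferon target genes were higher. The 9 interferon ligand genes on the list were too low to test, with summed counts of 2, 0 and 0 in control and 4, 12 and 8 in senescent replicates. *Ifnb1*, the interferon that IRF3 induces, had 1, 0 and 0 counts in control and 0, 1 and 2 counts in senescent replicates, so no difference was detectable at this depth. Most of the other ligand counts came from *Ifne* (4, 9 and 5 in senescent replicates), which was named after its values were seen. Of the 14 target genes, 12 were higher. *Isg15*, a ubiquitin-like modifier, was at 4.43, 5.05 and 5.31 CPM in control and 12.8, 13.1 and 11 CPM in senescent replicates (log2 fold change 1.32, adjusted p = 1.97e-05, edgeR). *Ifit3* rose from 4.49 to 24.1 CPM and *Bst2*, the gene for tetherin, from 11.5 to 59.5 CPM (adjusted p = 2.13e-07 and 5.57e-07, edgeR). *Cxcl10*, a chemokine gene, rose from 1.28 to 2.84 CPM (adjusted p = 0.000841, edgeR). *Stat2*, the gene for a transcription factor that carries the interferon signal, fell from 52.2 to 40.2 CPM (adjusted p = 0.000773, edgeR). With both receptor genes, the tested list of 16 held 12 higher, 3 lower and 1 not called, with a median of 1.38.

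**Figure D4:**
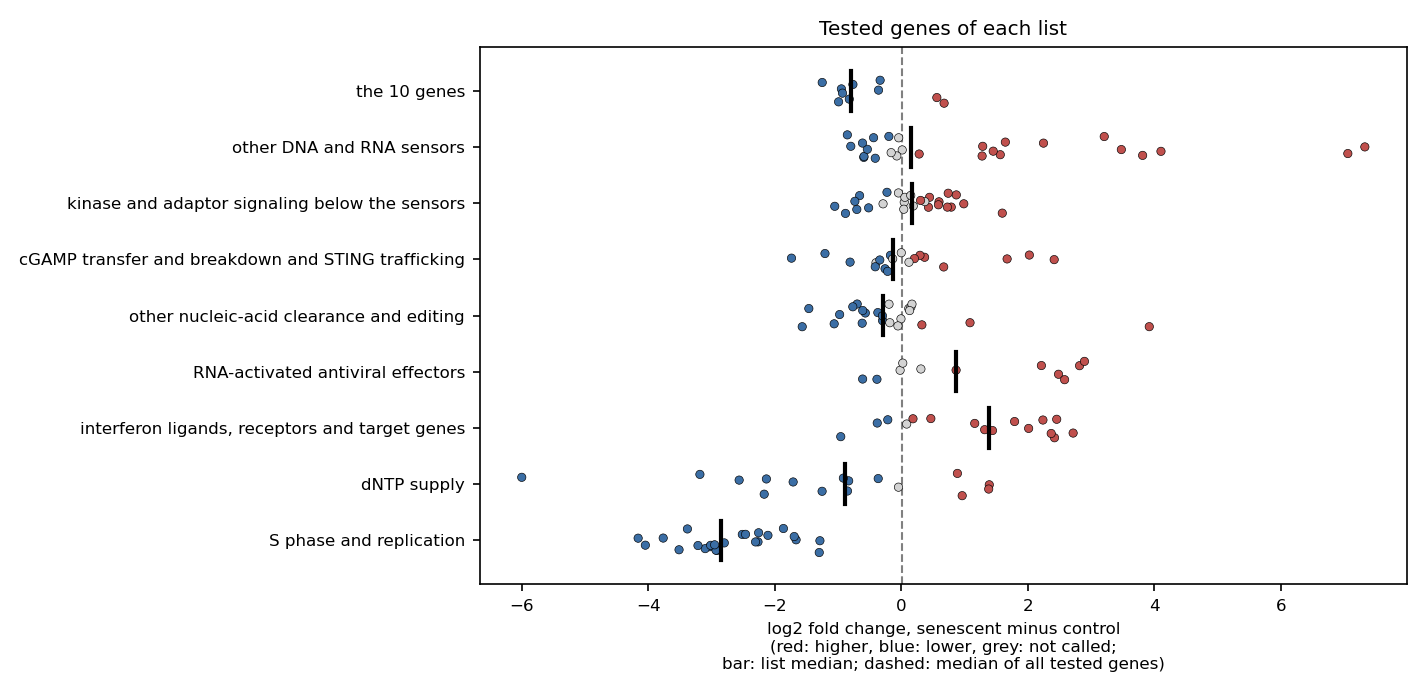
Log2 fold change, senescent minus control (x axis), of each tested gene in the 10 genes and 8 lists (y axis), in red for higher, blue for lower and grey for not called at an adjusted p under 0.05 (edgeR), with a bar for each list's median and a dashed line for the median of all tested genes. The bars of the 10 genes (-0.79), dNTP supply (-0.88) and S phase (-2.85) lie left of the dashed line, and those of RNA-activated effectors (0.87) and interferon genes (1.38) lie right of it.

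*Samhd1* and RNase H2 act on the precursors and products of DNA synthesis. Replication genes were much lower in senescent cells, and genes for the precursors were split, most of them lower. All 24 S phase and replication genes on the list were called lower, with a median log2 fold change of -2.85. Their summed level was between 1587 and 1611 CPM in control and between 266 and 267 CPM in senescent libraries. *Mcm5*, a subunit of the replicative helicase, fell from 134 to 7.50 CPM, and *Lig1*, the replicative DNA ligase gene, from 90.3 to 6.66 CPM (adjusted p = 1.84e-08 and 1.02e-08, edgeR). Of 16 genes for the supply of dNTPs, 11 were lower, 4 higher and 1 not called, with a median of -0.88. *Tk1* and *Rrm1*, which serve dNTP synthesis in S phase, fell from 84.2 to 1.33 CPM and from 284 to 31.3 CPM (adjusted p = 3.6e-08 and 2.08e-08, edgeR). *Tk2*, the mitochondrial thymidine kinase gene, and *Dctd*, the gene for deoxycytidylate deaminase, rose from 15 to 29.2 CPM and from 20.0 to 37.1 CPM (adjusted p = 7.12e-06 and 6.03e-06, edgeR). *Rrm2*, the regulated subunit of ribonucleotide reductase, held 177, 176 and 177 CPM in control and 52.8, 51.6 and 57.9 CPM in senescent replicates. The log2 fold change of *Rrm2* was -1.71 ± 0.06 (adjusted p = 2.13e-07, edgeR), beside -0.99 for *Samhd1*. The ratio of *Samhd1* to *Rrm2* per length was 0.209, 0.209 and 0.203 in control and 0.346, 0.357 and 0.320 in senescent replicates, without overlap (exact permutation p = 0.1, the smallest possible). The part of these S phase decreases in those of the 8 lower genes was not tested.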

How the data were processed

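RNA-seq of MAFs was analysed for 3 control and 3 senescent samples. In the MAPRSeq pipeline, the authors aligned read pairs to the mm10 genome by STAR, assigned them to genes by Subread and deposited the counts as they were, with no normalization. The strand setting of the counting is not given in the sources used here, so overlapping and antisense genes are uncertain.

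From these deposited counts, low genes were removed with filterByExpr and libraries were scaled by TMM. Groups were compared with edgeR's two-sided quasi-likelihood test in its robust form (edgeR 4.0.16, R 4.3.3), with the group as the only term and Benjamini-Hochberg adjustment over 17589 genes. SE values are the log2 fold change divided by the square root of the F statistic. CPM and FPKM were computed from the counts and the length column of the table. Ratios of partner genes were compared with the exact permutation test of 3 against 3. A count of 0 allows up to 3 counts, which covers counting error alone. The fit was also run on simulated counts, with the same spread set for every gene and no library that stood apart. This differs from the data, where senescent replicate 3 stood apart.

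The 10 genes and all lists were chosen with earlier results of these data known. The genes named are the 10, fixed partners, and the 2 genes of each list with the smallest p in each direction among those called, of which 1 is not reported here. *Ifne*, *Dnase1l3*, *Gm8093*, *Tyrobp*, *Aif1* and the other genes named for overlap or as markers, and the subgroups of lists, were not taken by this rule but after their values had been seen. Overlap was read from GENCODE M21 and promoters from RefSeq, both of GRCm38, the assembly that mm10 names. Alternatives were RLE scaling, library size alone, other filters, DESeq2 1.42.0, a replicate block, each library left out, and the limit of the study's methods.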

Additional observations from a re-analysis of the deposited data

How the results depend on the processing

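Of the 10 genes, 8 were called in all 12 alternative settings of the test, and no direction turned for any of the 10. The exceptions, *Trex1* and *Irf3*, are given in the text with the settings that ended their calls. With the limit of the study's methods, 0 of the 10 genes were higher and 1 lower, and 35 list genes were higher and 37 lower, in place of 56 and 76. Leaving out 1 library gave 2 higher genes among the 10 each time and 6 to 8 lower ones. Values near 0 changed sign: *Ddx58* ranged from -0.017 (without control replicate 3) to 0.055 with 1 library left out and was -0.012 without senescent replicate 3, and *Eif2ak2* was 0.0023 with RLE scaling, 0.060 with library size alone, 0.030 with at least 10 counts in every library, 0.0022 with DESeq2, and between -0.14 and 0.064 with 1 library left out. Library size alone moved the median log2 fold change of all genes from 0.01 to 0.09.

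No pairing of the samples by replicate number was seen. Deviations of same-numbered samples correlated at -0.15, 0.14 and -0.12, and those of differently numbered samples between -0.21 and 0.26. With 3 samples per group these values cannot exclude a pairing. With a replicate block, 2 of the 10 genes were still called higher and 8 lower, list genes were 53 higher and 73 lower, and 11624 genes were called in place of 12365. Among the genes named, the block ended the call of *Oas1c* (adjusted p = 0.0889, edgeR).

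Depth limits the interferon ligands, which held at most 9 counts in any library. The 3 samples per group limit the ratios of partner genes, for which no p under 0.1 is possible. The ratio of *Rnaseh2a* to *Rnaseh2c* ranged from -0.06 to 0.31 on the log2 scale when 1 library was left out, and that of *Rnaseh2b* to *Rnaseh2c* from -0.56 to 0.12.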
